A study of Mus musculus with 3 samples.

Results

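The cytosolic ribosomal protein genes were followed in single cells of the mouse mandibular condyle at 3 ages. Members were the genes whose symbols begin with Rpl or Rps and a digit, without pseudogene-named features and the S6 kinases, together with Rpsa, Rplp0, Rplp1 and Rplp2, provided that they held at least 100 UMIs (unique molecular identifiers, each standing for 1 captured transcript) over the 3 libraries. The rule found 84 of the 32285 genes in the files. Another 2 symbols matched but held too few UMIs, Rpl3l with 50 and Rpl10l with 0. Of the 84 members, 77 are core ribosomal proteins, with 31 in the small and 46 in the large subunit. A further 6 are paralogs of core members, namely Rpl22l1, Rps27l, Rps27rt, Rpl36al, Rpl39l and Rpl7l1. The last, Rps19bp1, matches the symbol pattern but encodes a binding partner of Rps19 and is no part of the ribosome.

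The condyle is the cartilage-capped jaw side of the temporomandibular joint. Condylar cells came from wild-type C57BL6 mice of 3 ages: embryos of day 16.5 (E16.5), newborns (P0) and adults of 13 weeks (13w). The labels name no transgene, deletion or drug in any group. Tissue of 7 to 20 mice was pooled at each age and digested, live cells were sorted, and each pool gave 1 droplet library. Animals therefore cannot be told apart, and differences between ages compare 3 libraries without a replicate check. Intervals given below are 95% and cover counting error only.

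Cytosolic ribosomes are built from structural RNAs and about 80 proteins, and their protein mRNAs are among the most abundant in any cell. Most of these mRNAs start with a run of pyrimidines, the terminal oligopyrimidine (TOP) motif, through which mTOR signalling adjusts their translation and stability as a group. Cartilage cells secrete large amounts of collagen and proteoglycan, so the transcripts of translation machinery share the RNA pool with very abundant matrix transcripts.

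Kept cells had 500 or more detected genes and no more than 10% of UMIs from mitochondrial genes. There were 4562 of them in the E16.5 library, 3999 in the P0 library and 8028 in the 13w library, with medians of 17401.5, 17954 and 11010 UMIs. The kept cells held 100546288, 94002214 and 113130140 UMIs. Libraries shared between 8 and 14 cell barcodes. Cells with at least 3 UMIs of the cartilage collagen gene Col9a1 per 10000 are called Col9a1-high. They numbered 1014, 1746 and 1621, or 22.2%, 43.7% and 20.2% of kept cells. The label of condylar cartilage was checked with Col2a1, the main cartilage collagen gene, which this class held at 10618, 19050 and 42076 CPM (a gene's UMIs over all UMIs, on the usual fixed scale) against 145, 290 and 3189 in the rest. Other chondrocyte markers set the classes apart unevenly at 13w. Matn3 had 176 CPM in this class against 4.84 and Col11a1 4109 against 590. Acan had 2136 against 1095 and Sox9 757 against 659, so these 2 differed less. The collagen gene Col1a1 was also higher in the class at 13w, at 12469 against 9730 CPM. Endothelial, mural, leukocyte, muscle or erythroid markers gated 6.69%, 2.90% and 5.51% of cells.

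The 5′ ends of 10 members are shown first because the TOP run lies there and because the members that differed most and least between birth and adulthood can be compared by eye. Each line gives 15 bases before and 15 from the annotated transcript start on, read 5′ to 3′ on the gene's strand from RefSeq promoter sequences on build GRCm38.p6, with the longest run of C and T in capitals. The first 5 genes are those with the largest 13w deficit against P0 among core members with a RefSeq sequence (chr17:24720048-24720077 on the plus strand for Rps2, chr17:33955651-33955680 on the minus strand for Rps18, chr10:128549154-128549183 on the minus strand for Rpl41, chr9:120571502-120571531 on the plus strand for Rpl14 and chr9:120127751-120127780 on the plus strand for Rpsa).
Rps2: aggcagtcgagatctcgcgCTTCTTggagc
Rps18: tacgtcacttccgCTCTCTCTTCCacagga
Rpl41: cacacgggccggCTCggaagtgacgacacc
Rpl14: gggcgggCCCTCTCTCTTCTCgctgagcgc
Rpsa: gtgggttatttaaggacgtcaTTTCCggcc
The other 5 are those with the smallest deficit (chr15:5116598-5116627 on the plus strand for Rpl37, chr3:90213634-90213663 on the minus strand for Rps27, chrX:74270801-74270830 on the plus strand for Rpl10, chrX:37085208-37085237 on the minus strand for Rpl39 and chr2:39005117-39005146 on the minus strand for Rpl35).
Rpl37: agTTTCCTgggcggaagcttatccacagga
Rps27: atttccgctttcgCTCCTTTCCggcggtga
Rpl10: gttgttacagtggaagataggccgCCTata
Rpl39: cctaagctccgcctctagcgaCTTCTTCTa
Rpl35: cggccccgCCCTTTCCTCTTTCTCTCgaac

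In the 5 members with the largest deficit the longest run measured 6, 11, 3, 14 and 5 bases, and in the 5 with the smallest it measured 6, 9, 3, 8 and 18. The 2 sets overlap. Of the 77 core members, 57 had a RefSeq sequence. A run of at least 8 pyrimidines, in any order of C and T and on the gene's strand, lay within this window in 25 of the 57 (43.9%), against 13.9% of 27025 genes. The motif CTTTCC, on either strand within 50 bases of the start, was found in 19 (33.3%) against 10.3%, and its matches can overlap the pyrimidine runs. Annotated starts need not be the starts used in these cells.

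The 84 members together took a smaller part of the RNA in the adult condyle than around birth. They made up 26.8% of all UMIs at E16.5, 24.5% at P0 and, in the adult library, 15.5%. The median cell gave 26.9%, 24.9% and 15.9%, with quartiles of cells at 22.3% and 31.0%, at 21.5% and 30.1% and at 13.05% and 19.2%, so the upper quartile in the adult library lay under the lower quartile of both earlier libraries. With each cell thinned to 3000 UMIs, which left out 170, 124 and 321 shallower cells, the shares were 26.4%, 26.1% and 16.2%, so that the small gap between E16.5 and P0 all but closed. In absolute terms the median cell held 5164, 4838 and 1783 ribosomal protein UMIs, at the depths given above, and less RNA per cell and lower capture cannot be told apart in such counts. Genes of secreted matrix, a list of 42 collagens, proteoglycans and other matrix proteins, took the opposite course in sum, at 2.65%, 6.58% and 16.2% of UMIs. With mitochondrial and matrix transcripts taken out of the total, the ribosomal protein share was 28.2%, 27.2% and 19.3%.

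Small and large subunit genes moved side by side. The 31 core small subunit genes held 11.95%, 10.8% and 6.66% of UMIs at E16.5, P0 and 13w, and the 46 core large subunit genes 14.6%, 13.5% and 8.64%. The ratio of small to large subunit UMIs was 0.820 at E16.5 and 0.772 at 13w, with P0 between them. Between P0 and 13w the median gene was lower by 1.62-fold in the small subunit and by 1.57-fold in the large.

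**Figure D1:**
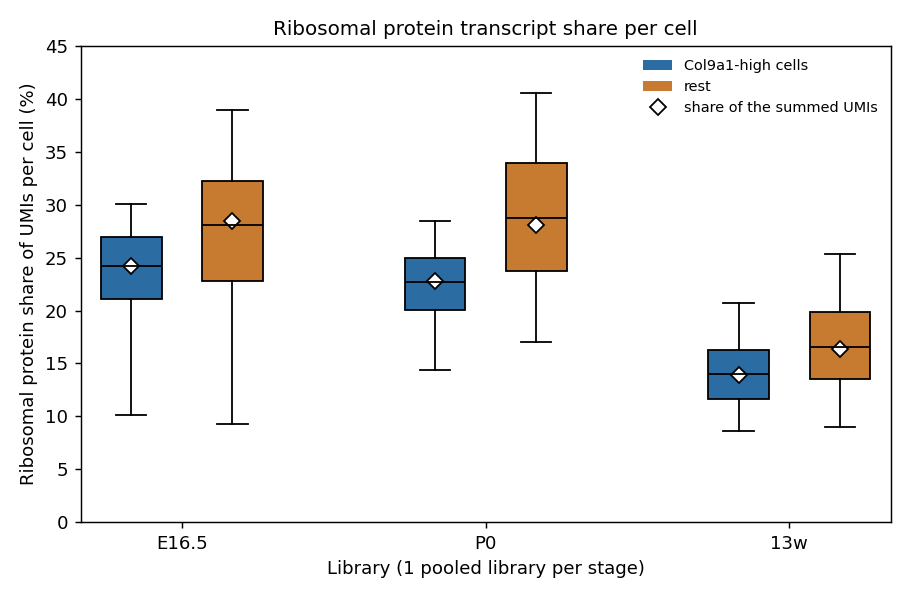
Share of each cell's UMIs that belong to the 84 members (vertical axis, %) in Col9a1-high cells and the rest, for the 3 libraries; boxes span the quartiles with the median, whiskers reach the 5th and 95th percentiles of cells, and diamonds give the share of the summed UMIs. Both classes are lower at 13w (13.9% and 16.4% of summed UMIs) than at P0 (22.8% and 28.1%), and in each library the Col9a1-high class is under the rest.

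From E16.5 to P0 single members moved little. At the level of 1.5-fold with a counting interval that excludes 1, 0 of 84 members were higher at P0 and 1 was lower, where 12.8% of 8261 measured genes (at least 10 CPM in the higher library) were higher and 21.3% lower. The median member stood at a log2 ratio of −0.14, beside −0.13 for all measured genes. The sign of this small shift depends on scaling. With TMM factors, which set the bulk of genes equal, all ratios rose by 0.18 and the median core member stood at 0.05. Intervals then lay above 1 for 51 members (49.8% of all measured genes) and below 1 for 29 (40.7%), in place of 12 (36.3%) and 70 (54.5%) by total UMIs.

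The members farthest from the others at P0 were few. Rps26, a small subunit protein near the mRNA exit channel, had 3746 CPM at E16.5, 2573 at P0 and, in the adult library, 1610. Rpl23a, which helps form the docking site at the peptide exit tunnel, had 2490, 1714 and 1013 CPM. Both thus stood 0.54 lower at P0 on the log2 scale, where the median core member was 0.13 lower. Of the paralogs, Rpl7l1 was at −0.58, Rpl36al at −0.45, Rpl22l1 at −0.38 and Rps27rt at −0.38. On the upper side, Rpl38 had 2159, 2475 and 1822 CPM, a log2 ratio of 0.20 at P0. Rpl38 is the large subunit protein whose loss disturbs skeletal patterning in mice. Rplp0, Rps14, Rpl13a and Rpl4 followed with log2 ratios of 0.11, 0.10, 0.10 and 0.09. The single member past 1.5-fold was the non-ribosomal Rps19bp1, with 67.7, 44.7 and 38.2 CPM.

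From P0 to 13w nearly all members were lower. At 1.5-fold, 56 of 84 were lower and 0 higher, where 20% of 8098 measured genes were lower and 15.8% higher. Among the 77 core members 54 were lower. The median core member was lower by 1.59-fold (log2 −0.67), beside a log2 median of −0.13 over all measured genes. Counting intervals lay below 1 for 83 of 84 members (54.2% of all measured genes), and the exception was Rpl35. At 2-fold 6 members were lower (7.93% of measured genes). With TMM factors the median core member was at −0.51 and 27 members were lower by 1.5-fold (13.3% of measured genes).

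**Figure D2:**
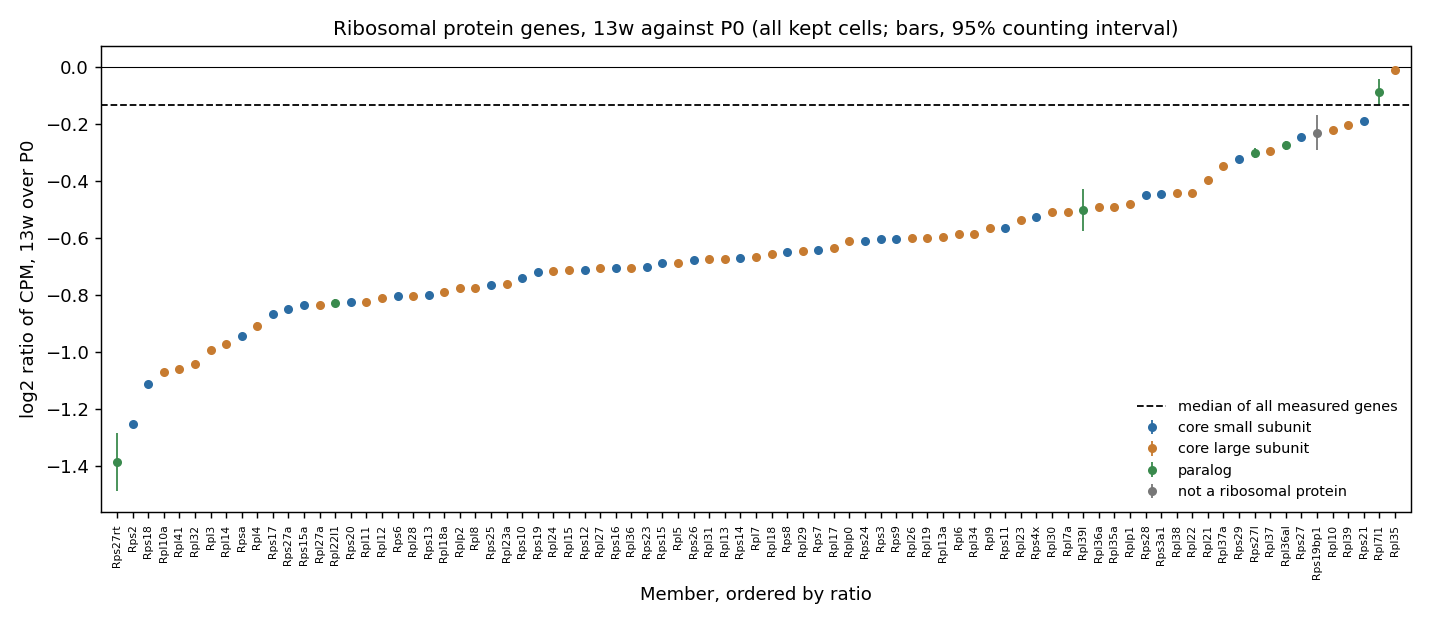
log2 ratio of CPM, 13w over P0, for the members named on the axis over all kept cells, ordered by ratio, with 95% counting intervals (mostly smaller than the points) and the median of all measured genes as a dashed line at −0.13. Rps27rt (−1.38) and Rps2 (−1.25) lie lowest, and Rpl7l1 (−0.09) and Rpl35 (−0.01) lie highest.

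Rps2, a small subunit protein that lines the mRNA entry channel, had the largest deficit of the core members. It held 5119 CPM at E16.5, 4768 at P0 and, in the adult library, 2001, so both perinatal libraries stood high and the adult library was 2.38-fold below P0. Rps18, at the head of the small subunit, had 4123, 4362 and 2021 CPM, and was 2.16-fold lower. Rpl10a, a protein of the mobile L1 stalk, had 2728, 2542 and 1213 CPM, 2.10-fold lower. Rpl41, the smallest protein of the set with 25 residues, had 6659, 6134 and 2942 CPM, 2.08-fold lower. Rpl32 had 4705, 4767 and 2319 CPM, 2.06-fold lower. Each of these genes had similar levels at E16.5 and P0, and the step lay between P0 and 13w.

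At the other end stood members with small differences between P0 and 13w. Rpl35, a protein beside the peptide exit tunnel, had 1456 CPM at E16.5, 1355 at P0 and, in the adult library, 1346, a log2 ratio of −0.01 from P0 to 13w. Rps21 had 2848, 2584 and 2268 CPM. Rpl39, a very small protein inside the exit tunnel, had 3455, 2838 and 2466 CPM, and Rpl10, which completes the active large subunit, had 2568, 2134 and 1833. Against the median core member, 2 members stood at least 1.5-fold higher at 13w, Rpl35 and Rpl7l1 (46.8% of measured genes), and 1 stood at least 1.5-fold lower, Rps27rt (5.12%). The SD of the log2 ratios was 0.22 over the 77 core members and 1.16 over all measured genes.

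The stalk genes and 2 other members with special roles were followed in the same way. The acidic stalk proteins recruit elongation factors to the ribosome. Their scaffold Rplp0 had 4914, 5300 and 3478 CPM, Rplp1 had 5583, 5734 and 4111, and Rplp2 had 3259, 2628 and 1536, so at 13w Rplp1 and Rplp0 were less reduced (log2 −0.48 and −0.61) than Rplp2 (−0.78). Rpsa, which is also known as the laminin receptor precursor, had 4850, 4510 and 2347 CPM, a log2 ratio of −0.94 from P0 to 13w. Rps27a, made as a fusion with ubiquitin, had 5768, 4802 and 2667, a log2 ratio of −0.85.

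Shorter proteins had, as a group, the smaller deficit. Among the 26 core members of 25 to 135 residues the median log2 ratio of 13w over P0 was −0.50. It was −0.71 among the 26 of 135 to 192 residues and −0.66 among the 25 of 194 to 419. Across the 77 core genes, Spearman's rho between protein length and log2 ratio was −0.31 and Pearson's r −0.32, and without Rpl41, which is short and had a large deficit, rho was −0.36. Over 7955 measured genes rho was −0.09. These are descriptions across genes that share 2 libraries. From E16.5 to P0 rho was 0.09 among the core members.

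The same step appeared in both cell classes. From P0 to 13w, 60 of 84 members were lower by 1.5-fold in Col9a1-high cells (29.8% of measured genes there) and 63 in the rest (18.6%). The median core member was at −0.74 in Col9a1-high cells and −0.79 in the rest. The order of the 77 core members was similar in the 2 classes, with a Spearman's rho of 0.78 across genes whose classes share the libraries. Rps2 was at −1.30 and −1.24, and Rpl35 at −0.05 and −0.11.

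**Figure D3:**
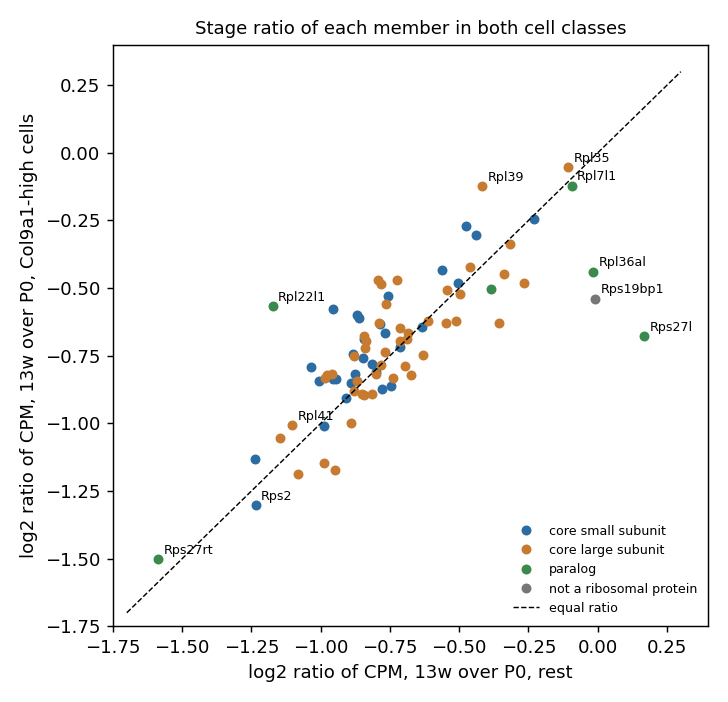
log2 ratio of CPM, 13w over P0, in the rest (horizontal) and in Col9a1-high cells (vertical), 1 point for each member shown, with the line of equal ratio. Core members lie along the line, while the paralogs Rps27l (0.17 in the rest, −0.68 in Col9a1-high cells) and Rpl22l1 (−1.17 and −0.57) lie on opposite sides of it.

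Within each library, Col9a1-high cells gave a smaller share of their RNA to ribosomal proteins than the other cells. The share was 24.2% against 28.5% at E16.5, 22.8% against 28.1% at P0 and 13.9% against 16.4% at 13w. The difference was −4.31, −5.27 and −2.45 percentage points, with a mean of −4.01 ± 1.43 (SD, n = 3 libraries), and the exact two-sided sign-flip test gave p = 0.25, the smallest that 3 pairs allow. Col9a1-high cells were deeper, with median UMIs of 40311.5 against 14937, 36409.5 against 11771 and 23612 against 9547. They also held more matrix transcripts, at 4.66% against 1.41%, 8.32% against 3.05% and 24.9% against 11.2% of UMIs. With mitochondrial and matrix transcripts taken out of the total, the differences were −3.68, −4.32 and 0.18 points, so that at 13w the classes were at 19.4% and 19.2% (exact sign-flip p = 0.5).

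Cells were also compared within ranges of depth. Among cells of 20000 to 40000 UMIs the share was 25.8% in Col9a1-high cells and 29.4% in the rest at E16.5, 23.1% and 24.99% at P0, and 13.5% and 15.4% at 13w. The share was lower in Col9a1-high cells in each other range with enough cells of both classes to give a value (P0 cells from 40000 UMIs had too few in the rest), except under 5000 UMIs at E16.5, where 43 Col9a1-high cells had 16.9% and the rest 14.5%. From 10000 to 20000 UMIs at E16.5, 81 Col9a1-high cells had 16.5% against 29.4%, with median mitochondrial shares of 5.57% and 2.19%. In this range at P0, 137 Col9a1-high cells had 18.95% against 29.6%, with mitochondrial shares of 6.43% and 3.69%. The classes there thus differed in mitochondrial share too. At 13w this range gave 14.9% against 16.04%, with mitochondrial shares of 3.30% and 3.23%. In the E16.5 library, cells under 5000 UMIs had a share of 14.8% and a median mitochondrial share of 6.09%, against 2.17% in all kept cells. Cells with a ribosomal protein share under 10% made up 5.46%, 1.75% and 8.22% of the libraries. At E16.5 and P0 these cells were shallow and rich in mitochondrial UMIs (medians of 7.43% and 6.37%), whereas at 13w their median depth of 11093 UMIs was close to that of the library. The part of RNA quality in these cells and in the comparisons within depth ranges was not tested.

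Per gene the contrast between the classes was small. Of the 84 members, 75 had a lower CPM in Col9a1-high cells in 3 of 3 libraries (49.2% of 9627 tested genes) and 2 had a higher one (16.4%). After TMM scaling, edgeR's quasi-likelihood test with the library as a block called 0 of 84 members at an adjusted p of 0.05, where 12.3% of tested genes were called higher and 13.8% lower. At an unadjusted p of 0.05 it passed 3 members, Rpl38, Rpl39l and Rpl36al, all higher in Col9a1-high cells. DESeq2 called the same 3 members (18.3% of genes called higher). The 3 libraries are of 3 ages, so the spread between pairs in these tests also holds differences between ages. A contrast that changes with age can thus go uncalled. The median member had an edgeR log2 ratio of −0.07, beside −0.03 over all tested genes. With no filter beyond 10 counts in all, edgeR called Rpl38 and Rpl39l higher (9.75%). With scaling by total counts alone 27 members were called, all lower (22.8% of genes called lower). Without the 13w library edgeR called 5 members, with Rpl36al, Rpl38 and Rps27l higher (19.9%) and Rps26 and Rps4x lower (20.3%).

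Rpl38 stood highest of the abundant core members in Col9a1-high cells. It had 2330 CPM against 2053 at E16.5, 2640 against 2141 at P0 and 1892 against 1781 at 13w, and was thus higher in each library. The edgeR log2 ratio was 0.37 (SE 0.10) with an adjusted p of 0.058, which misses the threshold. Rpl39l, a scarce paralog best known from male germ cells, had 42.7 against 29.0, 36.3 against 31.1 and 25.6 against 23.8 CPM. Its edgeR log2 ratio was 0.48 (SE 0.14, adjusted p 0.064). On the lower side, Rps4x, the X-linked small subunit protein, had 2997 against 4270, 2794 against 4080 and 1937 against 2412 CPM, with an edgeR log2 ratio of −0.28 (SE 0.13, adjusted p 0.18). Other members on this side were Rpl21 at −0.27 (SE 0.11, adjusted p 0.14), Rpl17 at −0.23 and Rps19 at −0.22. Rpl41 was at 0.18 (SE 0.12, adjusted p 0.31) and Rps2 at 0.13.

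The paralogs are given by their share of the UMIs of the pair with their core gene. Whether a paralog stood in for the core protein was not tested. Rpl22l1, the counterpart of Rpl22, held 42.9% of the pair's UMIs at E16.5, 41.0% at P0 and, in the adult library, 34.7%. In the rest its share was 44.1%, 45.6% and 32.2%, and in Col9a1-high cells 40.9%, 38.3% and 39.4%, so the class with the higher share changed between P0 and 13w. In cells with the fibroblast genes Dpt or Sfrp2 and the mesenchymal gene Crabp1, taken as separate gates, its share was 49.2%, 48.2% and 46.0% at E16.5 and 29.5%, 28.8% and 26.5% at 13w. Adult cells gated by other genes had 28.1% for Prg4, 31.1% for Col10a1, 31.7% for the fibrocartilage gene Cilp2, 36.7% for the cycling genes and 41.0% for the osteoblast genes Bglap or Bglap2.

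Rps27l, the p53-inducible counterpart of Rps27, turned the opposite way between the classes in CPM. In Col9a1-high cells it had 688 CPM at E16.5, 545 at P0 and, in the adult library, 340. In the rest it had 520, 386 and 434 CPM. It was thus higher in Col9a1-high cells before and at birth and lower in the adult. Its share of the pair was 28.6%, 24.3% and 19.8% in Col9a1-high cells and 19.5%, 13.8% and 19.6% in the rest.

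Rpl36al, the counterpart of Rpl36a, also had the higher share in Col9a1-high cells, with 47.2% against 35.3% at E16.5, 39.7% against 27.0% at P0 and 40.3% against 37.7% at 13w. Rpl36al and Rpl36a encode nearly identical proteins, and reads that match both can be lost or split by the counting. The remaining paralogs were scarce. Rpl39l held 0.981%, 1.20% and 0.982% of its pair with Rpl39, Rpl7l1 held 3.78%, 2.72% and 4.01% with Rpl7, and Rps27rt held 1.73%, 1.37% and 0.626% with Rps27. Rps27rt is a retrogene close to Rps27 in sequence, with 34.8, 26.8 and 10.3 CPM, and its counts may include reads of its parent.

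**Figure D4:**
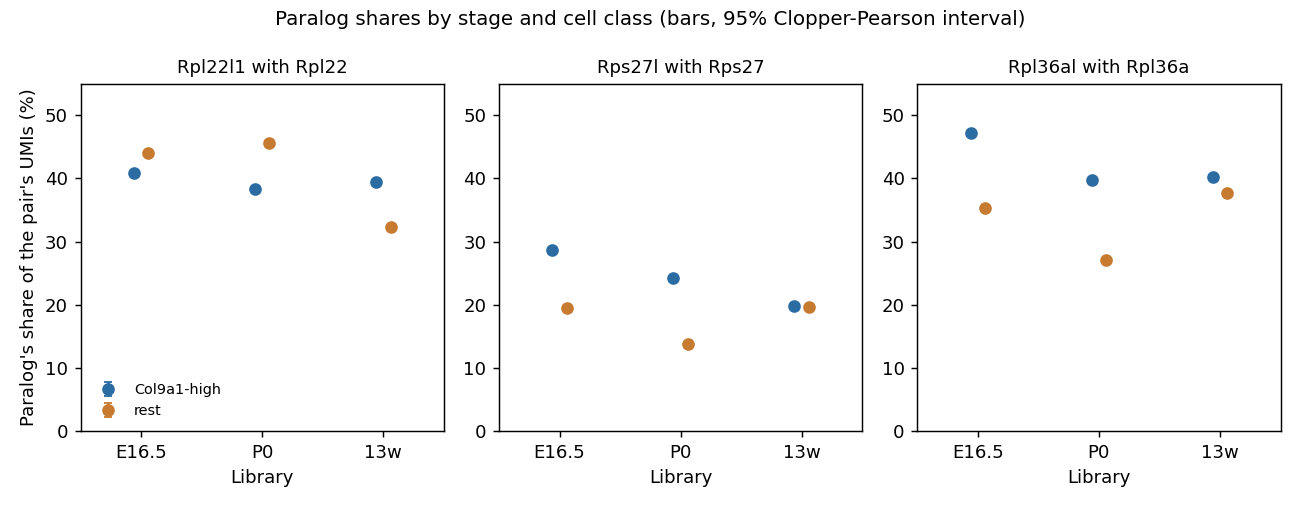
Share of each paralog in the UMIs of its pair (vertical axis, %), by library and cell class, with 95% Clopper-Pearson intervals smaller than the points. Rpl22l1 is higher in the rest at E16.5 and P0 (44.1% and 45.6%) and lower there at 13w (32.2%), while Rps27l and Rpl36al are higher in Col9a1-high cells at E16.5 and P0 and nearly level between classes at 13w.

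Ribosomal protein share differed among marker-gated cells inside a library. Among Col9a1-high cells, those with the hypertrophy collagen gene Col10a1 gave 22.3%, 21.7% and 13.6% at E16.5, P0 and 13w, and those without it 25.4%, 23.7% and 14.0%. Cells with Crabp1 were highest among the cartilage and connective tissue gates around birth, at 29.2% and 31.0%, and had 15.6% at 13w. Cells with Prg4, the joint surface lubricant gene, gave 28.6% at P0 and 15.7% at 13w. Cells with the cycling genes Mki67 or Top2a gave 26.2%, 23.7% and 15.3%, close to their libraries as a whole in summed UMIs. The median cycling cell had 25.9%, 23.4% and 13.6%, against 26.9%, 24.9% and 15.9% in all kept cells. Adult cells with Dpt, Cilp2 and Bglap or Bglap2 gave 16.4%, 16.2% and 14.4%. Each of these gates measured at both ages was thus lower at 13w than at P0. Endothelial cells gave 22.0%, 17.6% and 16.03% on 57, 39 and 28 cells. The 402 adult leukocytes gave 21.2%, with quartiles of cells at 4.84% and 27.6%, the widest of the adult gates.

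Genes that work with the ribosome were followed by lists of this machinery, read against the background shares of called genes given above. Among core ribosomal proteins whose symbols fall outside the rule, Fau, which encodes Rps30 as a fusion, had 3621, 3289 and 2066 CPM. Rack1, the scaffold on the small subunit, had 2211, 2156 and 1239. Both were lower by at least 1.5-fold at 13w.

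Translation elongation and other TOP genes were lower at 13w too. Of 19 measured, 11 were lower and 0 higher at 13w, with a median log2 ratio of −0.65. Npm1, a nucleolar chaperone of ribosome assembly, had 2790, 1657 and 683 CPM, Hnrnpa1 had 608, 431 and 174, and the elongation factor subunit gene Eef1g had 891, 693 and 327. Of 25 initiation factor genes 12 were lower and 1 higher, with a median of −0.58. Eif3b was lower at −1.18 and Eif4a2 was the higher one at 0.59.

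Ribosome biogenesis genes changed at another step. From E16.5 to P0, 21 of 30 were lower by 1.5-fold and 0 higher, with a median log2 ratio of −0.75, while the core ribosomal proteins stood at −0.13. Noc2l had 67.4, 22.0 and 16.2 CPM, Rrs1 had 52.8, 19.7 and 22.6, and Dkc1, the pseudouridine synthase of small nucleolar RNPs, had 102, 39.8 and 33.2. From P0 to 13w 7 of the 30 were lower, with a median of −0.31. Genes of the RNA polymerase I machinery were lower in 4 of 9 at the first step and in 3 of 8 at the second. Mitochondrial ribosomal protein genes, a list added after the data had been seen, were lower in 24 of 78 at the first step (median −0.41) and in 6 of 76 at the second (median −0.22, with 2 higher). Snhg and other hosts of small nucleolar RNAs were lower in 2 of 8 at each step. Of all measured genes, 21.3% were lower at the first step and 20% at the second. The host counts, and the 7 of 30 biogenesis genes at the second step, were near these shares.

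**Figure D5:**
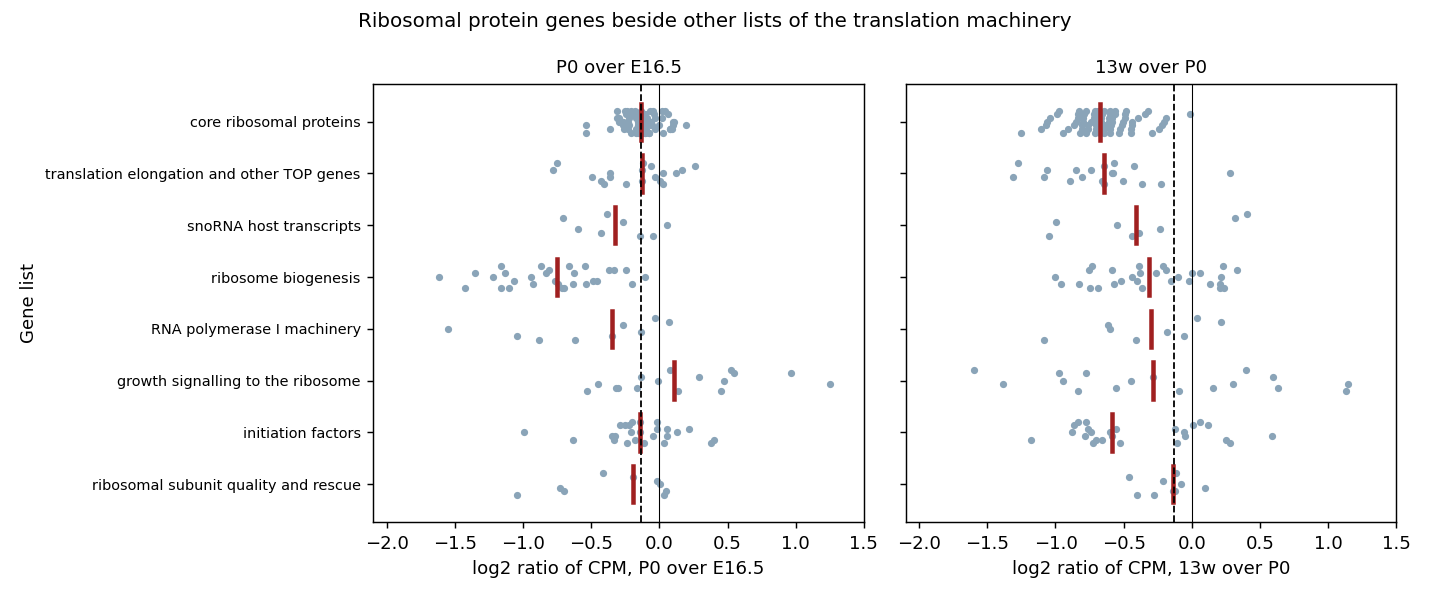
log2 ratio of CPM for each measured gene (points) and the median (red bar) of the core ribosomal proteins and of the other lists of translation machinery, for P0 over E16.5 (left) and 13w over P0 (right), with the median of all measured genes dashed at −0.13 in both. Biogenesis genes lie low at the first step (median −0.75) and core ribosomal proteins at the second (median −0.67).

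Genes of growth signalling to the ribosome showed no common direction. From P0 to 13w 4 of 17 were higher and 6 lower. Mtor had 11.5, 27.4 and 10.5 CPM at E16.5, P0 and 13w, so only the P0 library stood high, and Maf1, a repressor of RNA polymerase III, had 27.6, 53.8 and 31.5. Rps6kb1, the S6 kinase gene, had 203, 215 and 70.9 CPM. Myc was highest in the adult library, at 27.7, 19.2 and 42.2 CPM, and Sesn2, a stress-induced inhibitor of mTOR complex 1, had 7.11, 7.93 and 17.6. Of the 9 measured genes for stalled-ribosome rescue and subunit quality 0 were called at the second step in either direction.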

How the data were processed

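Single-cell RNA of mouse condylar cells was measured with 1 pooled library at each of E16.5, P0 and 13w. The authors deposited unnormalised UMI counts for every gene and cell barcode. The file headers name Cell Ranger 6.1.2, and the submitters' processing notes give build GRCm39. Cell Ranger's handling of reads that match several genes affects near-identical ribosomal gene copies. Counts were summed over kept cells per library, or per library and Col9a1 class, and divided by total UMIs to give CPM. Ratios carry exact conditional binomial intervals. Members and lists were chosen with earlier results of these data known. The named members are the 5 largest ratios in each direction per comparison among members of at least 50 CPM, those 1.5-fold from the median member, paralogs, stalk genes, Rpsa and Rps27a, and up to 3 called genes per list. The Col9a1 contrast used edgeR 4.0.16 (quasi-likelihood, TMM, library block, mean CPM of at least 5, Benjamini-Hochberg adjustment over all genes), with DESeq2 1.42.0 as an alternative. The fit was tested on simulated counts in which each changed gene had the same class difference in every library. That test does not cover a contrast that changes with age. Protein lengths came from GENCODE M21 and sequences from RefSeq. Doublets were kept in the main sums, since Scrublet's automatic threshold (scanpy 1.11.5) marked 5, 1 and 0 cells. Single values of a few genes are not reported here.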

Additional observations from a re-analysis of the deposited data

Results flagged for a closer look

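For 6 members the difference between Col9a1-high cells and the rest changed sign between stages with counting intervals that exclude 0 on both sides. By direction alone, 49.2% of 9627 tested genes were lower in Col9a1-high cells in 3 of 3 libraries and 16.4% higher. The remaining genes did not keep 1 direction, so a change of direction alone is not particular to these members. Of the 84 members, 75 were lower and 2 higher in 3 of 3 libraries. The share of all genes that change sign under the interval rule is not given here. The difference between stages was not tested, since each stage has 1 library. In the order E16.5, P0 and 13w, the log2 ratio of Rps27l was 0.40, 0.50 and −0.35. Rpl36al was at 0.27, 0.32 and −0.11, and Rpl22l1 at −0.25, −0.46 and 0.14. Rplp0 was at −0.25, −0.23 and 0.0640, and Rpl41 at −0.07, −0.02 and 0.0737. The non-ribosomal Rps19bp1 was at −0.20, 0.12 and −0.40.

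Features named as pseudogenes were left out of the members, and 3 of them held UMIs in every library. Rpl10-ps3 held 8048 UMIs over the 3 libraries, at 29.1, 24.1 and 25.2 CPM. Rpl36a-ps1 held 7361, at 34.6, 31.6 and 8.04 CPM, and Rpl9-ps6 held 6639, at 35.2, 24.0 and 7.44 CPM. Their sequences are close to those of their parents, and how far their counts are reads of the parents was not tested.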

How the results depend on the processing

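The log2 ratio of the ribosomal protein share, P0 over E16.5, was −0.13 as reported. It was −0.11 without mitochondrial UMIs, −0.0504 without mitochondrial and matrix UMIs, −0.14 with no cell filter, −0.14 with a 5% mitochondrial limit, −0.13 without the highest Scrublet scores, −0.13 without cells of other types, −0.0503 with both Col9a1 classes weighted equally, −0.0094 as a mean over cells and −0.016 with cells thinned to 3000 UMIs. The ratio for 13w over P0, −0.66 as reported, was −0.66, −0.50, −0.65, −0.68, −0.67, −0.70, −0.75, −0.67 and −0.69 under these 9 settings in the same order. With cells of at least 5000 and at least 10000 UMIs, chosen after the data had been seen, the first ratio was −0.14 and −0.17 and the second −0.67 and −0.69. The sign of both share ratios held under these settings, which all divide by UMI totals. With TMM and median-of-ratios factors the median core member, P0 over E16.5, had the opposite sign, at 0.05 and 0.04. For 13w over P0 it was at −0.51 with both. Members called between P0 and E16.5 (1 as reported) numbered 0 with TMM, median-of-ratios factors or a 2-fold limit, 2 with no cell filter, without the highest Scrublet scores, without other cell types or at 5000 UMIs, and 4 at 10000 UMIs. Of all measured genes, 12.8% were called higher and 21.3% lower at P0 as reported. These shares were 19.2% and 14% with TMM, and 5.31% and 8.72% at 2-fold. The 56 members called between 13w and P0 numbered 27 with TMM or median-of-ratios factors and 6 at 2-fold. In the Col9a1 contrast, where edgeR called 0 members, total-count scaling called 27, no count filter 2 and DESeq2 3, and leaving out 1 library called between 0 and 5, the 5 without 13w. Over all tested genes, 26.1% were called in this contrast as reported. The share was 29.8% with total counts, 22.6% with no count filter and 37.7% with DESeq2. It was 2.48% without E16.5, 1.05% without P0 and 40.3% without 13w, so the overall rate of calls also changed widely. The cause of these differences was not tested. Each stage had 1 library and no replicate numbers to pair. No paired analysis was possible because stages share no animals or numbered replicates, and only the Col9a1 classes are paired, by library. Depth limited no member, but counting intervals leave out variation between animals and libraries.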
